A study of Mus musculus with 15 samples.

Results

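Transcript levels of 39 genes of the cell cycle and of DNA replication were followed in neurons, astrocytes and microglia of the mouse cortex. The genes were taken by symbol from a list that uses no measured threshold, though it was chosen with earlier results of these data known. Each gene matched 1 of the 20610 genes in the deposited table. They comprise 16 genes of mitosis, 10 genes of DNA replication, 8 cyclins and cyclin-dependent kinases of the G1 phase, and 5 genes that set the brake between G1 and replication. All 3 groups were WT male mice at P28 (postnatal day 28), with no other allele, agent or treatment named for them, and each cell type had 5 libraries (n = 5, 15 in all). Cells were collected with a magnetic method and their polyA RNA was sequenced. The labels do not say which animal gave which library or whether animals were pooled, so the p-values below measure only how libraries differ, which may be technical. Levels are in TPM (transcripts of a gene per 1000000 transcripts), which corrects for transcript length, so that levels of different genes can be set side by side.

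Cells enter division when D-type cyclins and their kinases Cdk4 and Cdk6 phosphorylate the retinoblastoma protein Rb1, which otherwise holds back E2F transcription factors such as E2f1. E2F targets then supply the replication machinery, and a later wave of transcription supplies the cyclins, kinases and spindle proteins of mitosis. Mature cortical neurons have left the cell cycle for good, astrocytes and microglia of the adult cortex divide rarely, and oligodendrocyte precursors, endothelial cells and neural progenitors are among the brain cells that can still divide. D-type cyclins and kinase inhibitors are also transcribed in cells that do not divide.

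Markers separated the libraries by their labels, and markers of other cells were present as well. The 12 pan-neuronal markers summed to 1089 to 1926 TPM in neuron libraries and to at most 351 TPM elsewhere. The 12 astrocyte markers summed to 22604 to 25997 TPM in astrocytes and to at most 729 TPM elsewhere, and the 12 microglia markers to 74747 to 115612 TPM in microglia and to at most 237 TPM elsewhere. In neuron libraries the 12 endothelial markers summed to 28141 to 40927 TPM, above the pan-neuronal sum, against 2036 to 2660 TPM in astrocytes and 373 to 779 TPM in microglia, and none of the 12 was at 0 in any group as a whole. Sums of 12 markers of mature oligodendrocytes set libraries 1 and 2 apart from libraries 3 and 4 in neurons (8493 and 10389 against 221 and 248 TPM) and in microglia (69938 and 52216 against 6802 and 255 TPM), and counts without these libraries are given below. Depth is not recoverable from TPM, and only its average over samples is in the labels.

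Of the 39 genes, 32 had their highest mean level in neurons, 5 in astrocytes and 2 in microglia, and 34 had their lowest mean in microglia. How often all genes have these positions was not counted. Over all genes tested, the median log2 difference was -0.03 for neurons minus astrocytes. It was 0.48 for neurons minus microglia and 0.57 for astrocytes minus microglia. The 38 genes that reached 1 TPM in 5 or more libraries were tested with limma on log2(TPM + 1) in 1 model of all 15 libraries. Bub1 was below that filter. Mki67 and Cenpe passed it only through neuron libraries, so a difference from the other cells was built into their passing. A gene is called here when its adjusted p over all 13351 genes tested was below 0.05 and its difference at least 1 on the log2 scale, which is 2-fold. Folds are on the log2(TPM + 1) scale and understate the differences of genes at low levels.

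Neurons against astrocytes gave 13 genes called higher in neurons, where the background was 12.9% of all genes tested, and 1 called higher in astrocytes, with a background of 12.7%. Neurons against microglia gave 29 called higher in neurons (background 29.5%) and 0 called higher in microglia (background 9.74%). With limma and no fold minimum, that last count was 1 at an adjusted p below 0.05 (2134 of all 13351 genes) and 2 at an unadjusted one. Astrocytes against microglia gave 18 called higher in astrocytes (background 32.3%) and 1 called higher in microglia (background 10.2%). Without Mki67 and Cenpe, the genes called higher in the first cell type of these comparisons were 13, 27 and 18 of 36. In neurons 12 genes were called higher than in both other cell types (background 9.58%), in astrocytes 1 was (background 10.2%) and in microglia 0 were (background 7.42%; 2 by unadjusted p below 0.05), while 17 were called lower in microglia than in both others (background 18.3%). The median log2 difference of the 38 genes was 0.84 for neurons minus astrocytes, 1.27 for neurons minus microglia and 0.97 for astrocytes minus microglia, against -0.03, 0.48 and 0.57 for all genes tested. The last pair of comparisons share the microglia libraries, and the first pair share the neuron libraries.

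**Figure D1:**
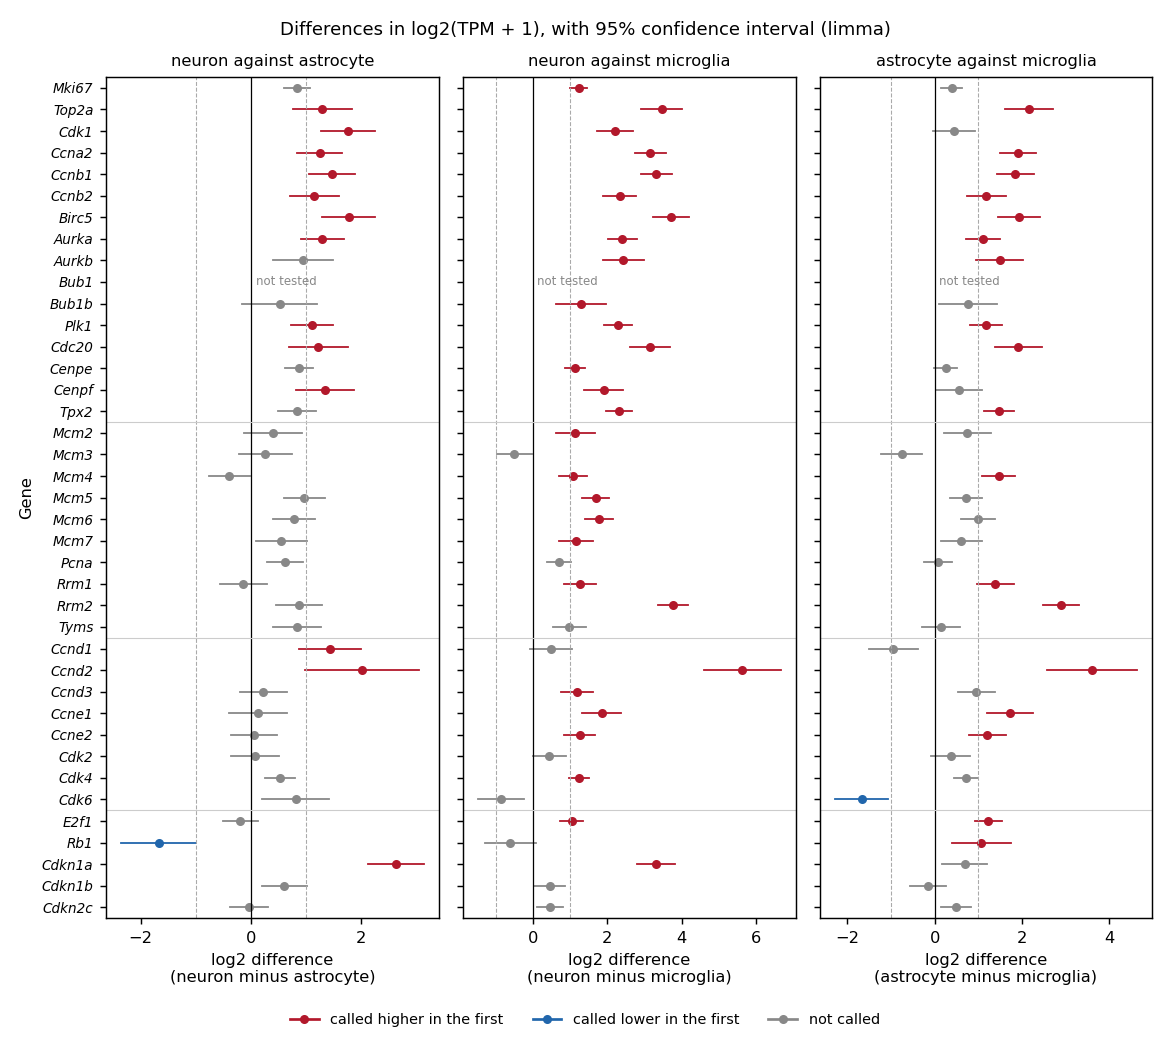
Difference in log2(TPM + 1) for each of the 39 genes in the 3 comparisons, with points for the limma estimate and bars for its 95% confidence interval, 5 libraries per cell type; dashed lines mark a difference of 1 in either direction. Bub1 was not tested and has no point. Points of the other mitotic genes, at the top, lie to the right of 0 in every panel. Intervals of Bub1b in the first panel and of Cdk1 and Cenpe in the last cross 0. The genes called lower in the first cell type are Rb1 in the first panel and Cdk6 in the last.

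The scale of the libraries mattered for the differences from microglia. Scaling by median of ratios, in place of TPM as deposited, moved the median of all genes by -0.51 for neurons minus microglia and by -0.54 for astrocytes minus microglia. Under that scaling 21 of the 38 genes were called higher in neurons and 3 higher in microglia, against 2655 and 2107 of all 13351 genes tested. Between astrocytes and microglia, 10 were called higher in astrocytes and 3 higher in microglia, against 2619 and 2285 of all. Quantile normalization gave 18 and 2 (2447 and 1952 of all genes), and 8 and 3 (2471 and 2048 of all). These counts of all genes under the 2 scalings also apply to the groups and lists below. Between neurons and astrocytes all 14 calls were kept under both, and Mcm5 (both), Aurkb and Rrm2 (quantile normalization) were called in addition. Over all genes the share of calls in favour of neurons went from 75.2% to 55.8% and 55.6% under these scalings, and the share in favour of astrocytes from 76.0% to 53.4% and 54.7%. The folds from microglia below are those of TPM as deposited, with the medians of 0.48 and 0.57 not taken off, and members whose call depends on the scaling are named with their group.

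The mitotic genes had the order neurons, then astrocytes, then microglia in 16 of 16 cases. How many of all genes had that order was not counted, and the medians of all genes against microglia given above lean the same way. Of the 15 mitotic genes tested, 10 were called higher in neurons than in astrocytes. Against microglia, 15 were called higher in neurons and 10 higher in astrocytes. None was called the other way in any comparison. These shares of 66.7%, 100% and 66.7% stand against 12.9%, 29.5% and 32.3% of all genes. The median log2 differences of the 15 genes were 1.23, 2.33 and 1.18. Without Mki67 and Cenpe, whose passing rested on neurons, the counts were 10, 13 and 10 of 13. Median-of-ratios scaling kept 10, 14 and 7 of the calls and quantile normalization 10, 12 and 5. The calls lost between neurons and microglia were those of Cenpe under both and of Mki67 and Bub1b under quantile normalization, and between astrocytes and microglia those of Aurka, Ccnb2 and Plk1 under both and of Aurkb and Tpx2 under quantile normalization. The 16 genes together summed to 154 to 316 TPM in neurons, 55.6 to 96.2 TPM in astrocytes and 19.9 to 32.1 TPM in microglia, so the 3 groups of libraries did not overlap. In bulk RNA of this kind, fewer cells of a type and less RNA per cell cannot be told apart. The endothelial sum had the same order of groups, as did 8 markers of neural stem cells and neuroblasts (26.5 to 46.7, 20.4 to 34.1 and 1.56 to 2.18 TPM, with Neurog2 at 0 in every microglia library). Markers of mural cells (3016 to 5635, 1930 to 2631 and 108 to 275 TPM) had it as well. So did the 3 red cell markers found in the table (194 to 1021, 4.49 to 10.6 and 1.20 to 6.27 TPM, with Slc4a1 at 0 in every microglia library) and, by group means with overlapping libraries, 12 oligodendrocyte precursor markers (233, 141 and 82.1 TPM). Other lists ran in other orders by their means in neurons, astrocytes and microglia. Fibroblast and meningeal markers averaged 205, 265 and 41.7 TPM, and mature oligodendrocyte markers 4200, 1481 and 27483 TPM. Border macrophage markers averaged 47.1, 59.9 and 1406 TPM. The part of any of these cells in the mitotic levels was not tested.

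**Figure D2:**
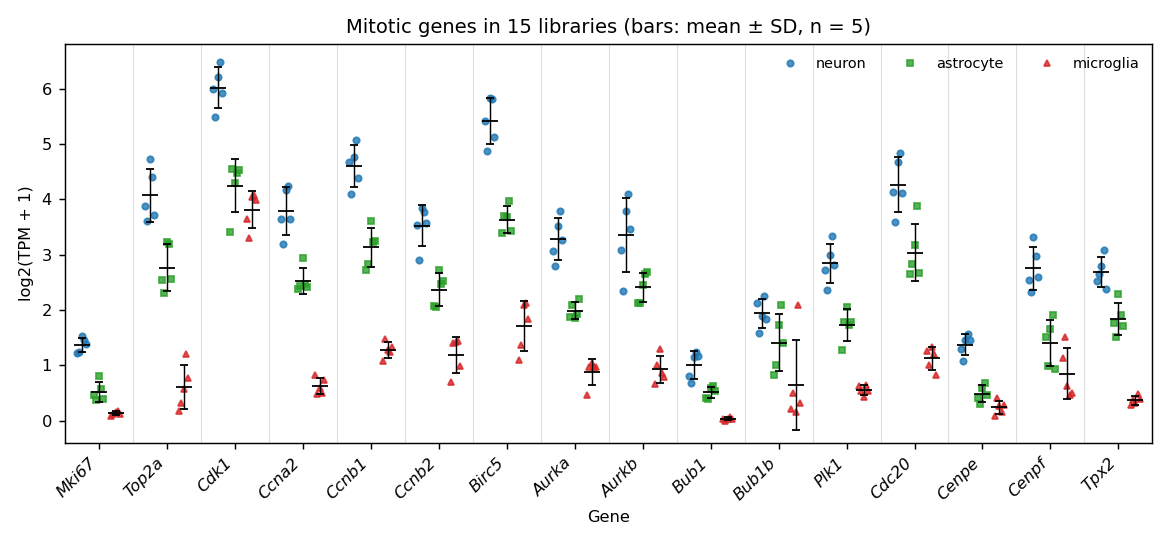
Level of each of the 16 mitotic genes as log2(TPM + 1), with genes along the bottom, 1 point per library, and bars for the mean ± SD over 5 libraries of each cell type. Neurons have the highest mean and microglia the lowest for every gene, and a single microglia library stands apart for Bub1b (3.24 TPM).

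Cdk1, the kinase that drives entry into mitosis, was the most abundant of the mitotic genes. It stood at 63.1, 44.0, 73.2, 88.1 and 59.5 TPM in neuron libraries 1 to 5, at 9.58, 22.4, 18.6, 21.3 and 22.0 TPM in astrocytes, and at 11.5, 8.82, 15.5, 15.99 and 14.9 TPM in microglia. Every neuron library was above every other library, whereas astrocytes and microglia overlapped. Neurons exceeded astrocytes by 1.77 ± 0.23 on the log2 scale (SE; 3.41-fold, adjusted p = 4.49e-06) and microglia by 2.21 ± 0.23 (4.62-fold, adjusted p = 1.49e-07). Astrocytes minus microglia was 0.44 ± 0.23 with an adjusted p of 0.0987.

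The cyclins that bind Cdk1 separated all 3 cell types. Ccnb1, cyclin B1, stood at 24.61, 16.03, 26.23, 32.68 and 20.02 TPM in neurons, at 5.61, 6.14, 11.2, 8.43 and 8.47 TPM in astrocytes and at 1.12, 1.79, 1.42, 1.36 and 1.52 TPM in microglia. No 2 groups overlapped for Ccnb1, and it was called higher in neurons than in astrocytes (2.77-fold, adjusted p = 6.81e-06) and in astrocytes than in microglia (3.60-fold, adjusted p = 1.86e-07). Ccna2, cyclin A2, averaged 13.3 ± 4.12 TPM in neurons (mean ± SD), 4.83 ± 1.06 TPM in astrocytes and 0.548 ± 0.158 TPM in microglia, and Ccnb2, cyclin B2, averaged 10.8 ± 2.696, 4.25 ± 1.07 and 1.33 ± 0.491 TPM. Both were called in each comparison, except that Ccnb2 was not called between astrocytes and microglia under either of the other scalings (log2 difference 0.55 to 0.72).

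Top2a, the topoisomerase that untangles sister chromosomes, and Mki67, the coat protein of mitotic chromosomes best known as the antigen Ki-67, are the usual markers of dividing cells. Top2a stood at 13.7, 11.3, 25.7, 20.3 and 12.1 TPM in neurons, at 4.82, 3.94, 8.42, 8.14 and 4.91 TPM in astrocytes and at 0.13, 0.25, 0.48, 1.29 and 0.71 TPM in microglia. The groups did not overlap, and the folds were 2.47 between neurons and astrocytes (adjusted p = 0.000355) and 4.47 between astrocytes and microglia (adjusted p = 6.75e-07). Mki67 was far lower, at 1.34, 1.37, 1.88, 1.73 and 1.60 TPM in neurons, at 0.37, 0.30, 0.74, 0.49 and 0.31 TPM in astrocytes and at 0.06, 0.09, 0.12, 0.13 and 0.09 TPM in microglia. Its groups did not overlap either. At so low a level its difference between neurons and astrocytes came to 0.85 ± 0.11 on the log2 scale, under the 2-fold minimum. Its adjusted p by limma was 5.89e-06. Mki67 passed the filter only through neuron libraries, so that p is no independent evidence of a difference.

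Genes of the spindle and of chromosome segregation ran the same way. Birc5, the survivin subunit of the chromosomal passenger complex, averaged 43.1 ± 12.4 TPM in neurons, 11.5 ± 2.13 TPM in astrocytes and 2.39 ± 0.992 TPM in microglia, and its difference between neurons and astrocytes was the largest of the mitotic genes (3.44-fold, adjusted p = 3.58e-06). Aurkb, the kinase of the same complex, averaged 10.1 ± 4.64, 4.38 ± 0.988 and 0.922 ± 0.340 TPM, and 1 neuron library at 4.09 TPM fell among the astrocytes. Between neurons and astrocytes Aurkb was not called, because its log2 difference of 0.95 was below 1 (limma, adjusted p = 0.00516). Cdc20, the activator of the anaphase-promoting complex, averaged 19.2 ± 6.74, 7.68 ± 3.53 and 1.20 ± 0.306 TPM and was called in all 3 comparisons, although neurons and astrocytes overlapped. Aurka, the centrosomal kinase, and Plk1, a kinase of mitotic entry, were called in all 3 as well, at 9.04 ± 2.65 and 6.36 ± 1.82 TPM in neurons, 2.99 ± 0.419 and 2.36 ± 0.619 TPM in astrocytes and 0.862 ± 0.278 and 0.470 ± 0.0840 TPM in microglia. The call of Plk1 between neurons and astrocytes was lost without neuron library 4 (log2 difference 0.997), and those of Aurka and Plk1 between astrocytes and microglia under both other scalings.

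The remaining mitotic genes were lower. Tpx2, a spindle assembly factor, averaged 5.52 ± 1.25, 2.63 ± 0.785 and 0.290 ± 0.0678 TPM, and the kinetochore protein Cenpf averaged 5.94 ± 1.98, 1.73 ± 0.775 and 0.876 ± 0.641 TPM. Cenpf was called higher in neurons than in both other cells, and its astrocyte and microglia libraries overlapped. Bub1b, a kinase-like protein of the spindle checkpoint, averaged 2.88 ± 0.694, 1.80 ± 1.02 and 0.832 ± 1.35 TPM and overlapped in all 3 comparisons. Microglia library 4 stood at 3.24 TPM for Bub1b and the other 4 at 0.11 to 0.42 TPM. The kinetochore motor Cenpe averaged 1.60 ± 0.326, 0.410 ± 0.151 and 0.184 ± 0.102 TPM. Bub1, the checkpoint kinase that was not tested, ranged from 0.60 to 1.37 TPM in neurons, from 0.31 to 0.54 TPM in astrocytes and from 0 to 0.05 TPM in microglia.

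Within the neurons the same libraries were high or low for most mitotic genes. Library 4 was highest for 11 of the 16 genes and library 3 for 5, and library 2 was lowest for 14. The summed mitotic level was 219, 154, 289, 316 and 205 TPM in neuron libraries 1 to 5. The endothelial sum was 28141, 29363, 31722, 33211 and 40927 TPM in the same order of libraries. The mural sum was highest in library 3 (5635 TPM), followed by library 4 (5132 TPM), and lowest in library 1 (3016 TPM). The sum of 8 fibroblast and meningeal markers was highest in library 3 (289 TPM) and lowest in library 5 (156 TPM). Whether any marker sum follows the mitotic sum was not tested. The sum of 12 oligodendrocyte precursor markers was highest in library 4 (357 TPM) and lowest in library 3 (77.4 TPM). The red cell sum was also highest in library 4 (1021 TPM) and lowest in library 3 (194 TPM). The neural stem and neuroblast sum, like the mitotic sum, was highest in library 4 (46.7 TPM) and lowest in library 2 (26.5 TPM). Without all libraries numbered 1 and 2, 11 of 13 mitotic genes tested were called higher in neurons than in astrocytes, and without those numbered 3 and 4, 9 of 13. Of all genes tested, these fits called 1573 of 12347 and 1546 of 11964 higher in neurons than in astrocytes.

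**Figure D3:**
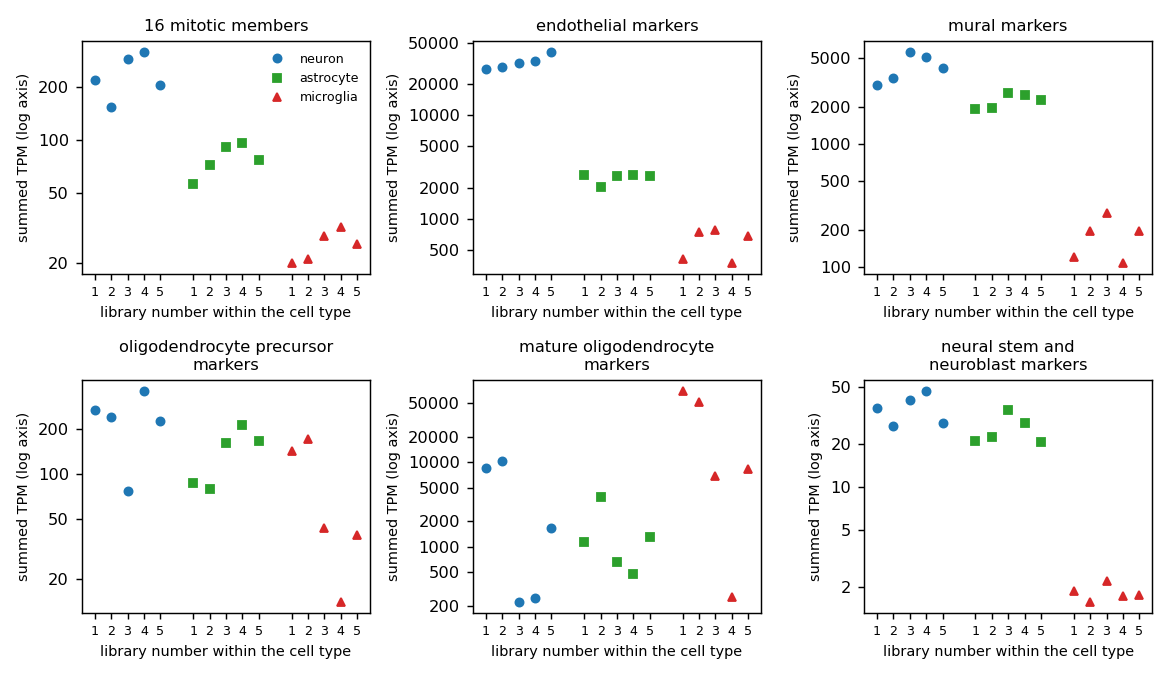
Summed TPM of the 16 mitotic genes and of 5 lists of markers in each of the 15 libraries, on log axes, with library numbers within each cell type along the bottom. The mitotic, endothelial and mural sums step down from neurons to astrocytes to microglia without overlap, while the other 3 marker sums overlap between neurons and astrocytes.

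Since the mitotic genes shared 1 order of cell types, their promoters were read in the RefSeq table of mouse promoters (build GRCm38.p6, 250 bases before to 50 after each start, 300 in all). The search covered both strands for TTTGAA (CHR, the cell cycle genes homology region of late cell cycle promoters), for CCAAT (the NF-Y box, ATTGG on the other strand) and for TTTCCCGC, TTTGGCGC, TTTCGCGC or TTTGCCGC (E2F sites). Of the 39 genes 31 had an entry, and Ccna2, Aurkb, Tpx2, Mcm4, Ccnd1, Ccnd2, Ccne2 and Rb1 were not matched. The CHR letters were in 9 of 13 mitotic promoters (69.2%) and in 17.9% of all 32851 promoters, CCAAT in 12 of 13 (92.3%) against 37.4%, and both together in 9 of 13 (69.2%) against 6.95%. An E2F word was in 1 of the 13, against 2.26% of all. Stretches from 150 bases before to 20 after the start are shown for mitotic genes with both words, and for Ccnb1, which has CCAAT without the CHR letters. They were picked after the matches were seen. Each runs 5′ to 3′ on the strand of its gene, capitals mark the matched words on either strand, and a match describes letters and not a bound site.
Cdk1: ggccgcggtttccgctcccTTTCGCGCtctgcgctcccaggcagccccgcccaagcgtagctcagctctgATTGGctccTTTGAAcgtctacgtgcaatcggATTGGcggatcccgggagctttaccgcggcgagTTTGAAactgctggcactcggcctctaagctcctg
Ccnb2: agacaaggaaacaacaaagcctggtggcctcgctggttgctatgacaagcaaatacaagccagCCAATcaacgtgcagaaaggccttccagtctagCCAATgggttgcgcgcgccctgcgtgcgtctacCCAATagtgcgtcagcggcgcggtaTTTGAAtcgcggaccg
Cdc20: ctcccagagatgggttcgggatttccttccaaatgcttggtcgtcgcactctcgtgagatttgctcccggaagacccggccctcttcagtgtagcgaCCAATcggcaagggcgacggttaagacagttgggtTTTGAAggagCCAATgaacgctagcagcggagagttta
Top2a: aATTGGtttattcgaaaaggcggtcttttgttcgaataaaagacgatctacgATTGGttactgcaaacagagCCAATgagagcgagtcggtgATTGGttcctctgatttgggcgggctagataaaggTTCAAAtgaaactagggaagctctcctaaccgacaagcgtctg
Cenpf: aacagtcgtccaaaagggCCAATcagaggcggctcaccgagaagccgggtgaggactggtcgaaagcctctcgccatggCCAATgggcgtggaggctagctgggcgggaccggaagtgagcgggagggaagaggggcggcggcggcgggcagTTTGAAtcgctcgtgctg
Ccnb1: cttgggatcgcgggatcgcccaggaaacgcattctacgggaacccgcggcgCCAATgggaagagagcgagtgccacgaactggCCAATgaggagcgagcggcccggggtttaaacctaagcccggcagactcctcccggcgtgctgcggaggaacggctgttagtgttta
These lie on the minus strand at chr10:69352893-69353062 (Cdk1), chr9:70421535-70421704 (Ccnb2), chr4:118437324-118437493 (Cdc20), chr11:99024170-99024339 (Top2a), chr1:189688067-189688236 (Cenpf) and chr13:100786467-100786636 (Ccnb1). Cdk1 alone of the 13 has an E2F word besides the CHR and CCAAT words.

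None of the 10 replication genes was called between neurons and astrocytes by limma in either direction. With limma and no fold minimum, 6 were higher in neurons at an adjusted p below 0.05 (Mcm5, Mcm6, Mcm7, Pcna, Rrm2 and Tyms). By that rule 3493 of all 13351 genes tested were higher in neurons and 3803 in astrocytes. At an unadjusted p below 0.05 the same 6 replication genes were higher in neurons and 1 in astrocytes. Neurons were called higher than microglia for 7 of 10, against 29.5% of all genes, and astrocytes higher than microglia for 3 of 10, which is near the 32.3% of all genes. Median log2 differences were 0.59, 1.15 and 0.73. The 10 genes summed to 163 to 322 TPM in neurons, 131 to 179 TPM in astrocytes and 99.6 to 128 TPM in microglia, the order in which the endothelial and mural sums also ran, and the part of those cells was not tested. Without libraries numbered 1 and 2, Mcm5, Rrm2 and Tyms were called higher in neurons than in astrocytes. Under both other scalings 3 of the 7 calls between neurons and microglia were kept (Mcm5, Mcm6 and Rrm2) and those of Mcm2, Mcm4, Mcm7 and Rrm1 were lost. Between astrocytes and microglia the call of Rrm2 was kept and those of Mcm4 and Rrm1 were lost.

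**Figure D4:**
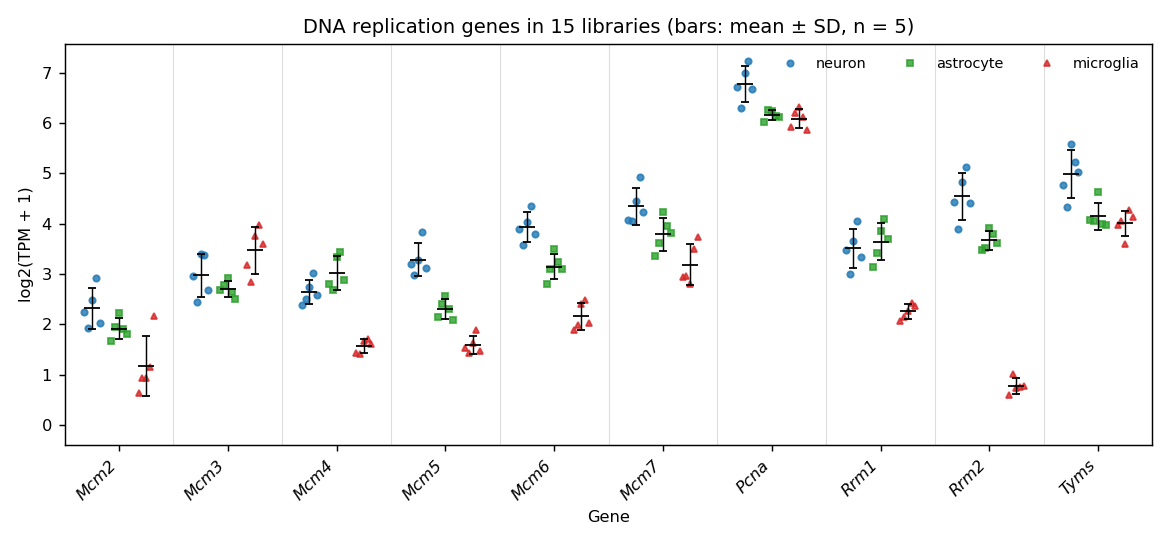
Level of each of the 10 replication genes as log2(TPM + 1), with genes along the bottom, 1 point per library, and bars for the mean ± SD over 5 libraries of each cell type. Rrm2 lies between 0.51 and 1.03 TPM in microglia and at 10.2 TPM or more elsewhere, and Mcm3 has its highest mean in microglia.

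Rrm2, the small subunit of ribonucleotide reductase that makes deoxynucleotides in S phase, set microglia apart most clearly. It stood at 20.6, 14.0, 27.5, 34.2 and 20.4 TPM in neurons, at 10.2, 10.5, 14.2, 12.9 and 11.3 TPM in astrocytes and at 0.51, 1.03, 0.66, 0.68 and 0.72 TPM in microglia. All microglia libraries were below all others, and neurons and astrocytes overlapped by 1 neuron library. Rrm2 was called 13.6-fold higher in neurons (adjusted p = 1.41e-11) and 7.43-fold higher in astrocytes than in microglia (adjusted p = 3.78e-10). Its partner Rrm1, the large catalytic subunit, averaged 10.7 ± 3.21, 11.8 ± 3.21 and 3.80 ± 0.502 TPM, and these calls against microglia (2.39-fold and 2.62-fold) were lost under both other scalings. Within a library, which no scaling factor changes, the ratio of Rrm2 to Rrm1 was 2.15 ± 0.149 in neurons, 1.03 ± 0.184 in astrocytes and 0.192 ± 0.0605 in the microglia libraries.

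The Mcm2 to Mcm7 proteins form the hexameric helicase that is loaded on origins and unwinds DNA. Together the 6 genes summed to 60.05 ± 15.9 TPM in neurons, 40.8 ± 7.84 TPM in astrocytes and 27.9 ± 7.09 TPM in microglia. They did not run in parallel. Mcm3 stood at 6.74, 4.43, 9.57, 9.45 and 5.46 TPM in neurons, at 5.44, 5.88, 6.57, 5.23 and 4.69 TPM in astrocytes and at 8.03, 6.12, 12.5, 14.8 and 11.2 TPM in microglia. Microglia were highest by their mean but overlapped both other groups, and Mcm3 was not called (log2 difference -0.76, adjusted p = 0.00610 for astrocytes minus microglia). Under median-of-ratios scaling it was called higher in microglia than in neurons (-1.05) and than in astrocytes, and under quantile normalization than in astrocytes only.

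As a share of the 6 helicase genes, Mcm3 took 11.8 ± 1.98% in neurons, 13.9 ± 2.28% in astrocytes and 37.3 ± 5.80% in microglia, where its range of 30.6 to 44.7% lay above all other libraries. Mcm4 was highest in astrocytes, at 7.35 ± 2.00 TPM against 5.32 ± 1.11 TPM in neurons and 1.97 ± 0.279 TPM in microglia. Mcm5 (8.95 ± 2.49, 3.98 ± 0.671 and 2.03 ± 0.416 TPM) and Mcm6 (14.5 ± 3.24, 7.97 ± 1.59 and 3.52 ± 0.852 TPM) stepped down with no overlap between neurons, astrocytes and microglia. Mcm7 averaged 19.96 ± 5.83, 13.1 ± 3.23 and 8.42 ± 2.80 TPM. Mcm2 averaged 4.14 ± 1.53, 2.80 ± 0.561 and 1.43 ± 1.19 TPM, with microglia library 5 at 3.51 TPM and the other 4 at 0.56 to 1.23 TPM.

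Pcna, the sliding clamp that also serves DNA repair, was the most abundant replication gene in every cell type. It stood at 105, 77.5, 126, 150.2 and 101 TPM in neurons, at 64.4, 75.4, 74.9, 70.0 and 68.7 TPM in astrocytes and at 59.6, 72.4, 79.4, 68.8 and 57.4 TPM in microglia. Neurons were above all astrocytes, and 1 microglia library exceeded the lowest neuron library. The log2 differences of neurons from astrocytes (0.62 ± 0.15, adjusted p = 0.00207) and from microglia (0.70 ± 0.15, adjusted p = 0.000541) were below 2-fold. Tyms, thymidylate synthase, averaged 32.1 ± 10.5, 17.0 ± 3.84 and 15.3 ± 2.68 TPM and was 0.98 higher in neurons than in microglia on the log2 scale (adjusted p = 0.000412), just short of a call. Pcna and Tyms each have named pseudogenes in GENCODE vM21, as do Ccnb1, Ccnb2 and Ccnd3, so reads of these 5 genes may be shared.

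In the promoters of the replication genes (10 windows of 9 genes) an E2F word was found in 4 (40.0%) against 2.26% of all promoters, and the CHR letters in 1 of 10 against 17.9%. CCAAT was found in 9 (90.0%). In the promoters of the G1 genes and of the brake the CHR letters were in 0 of 6 and 0 of 6 windows, which are few. In a longer list of other G1 regulators, described below, they were in 13 of 38 windows (34.2%), above the 17.9% of all promoters. CHR and CCAAT together were in 21.1% of those windows, against 6.95% of all. E2F words were in 11 of those 38 windows (28.9%). They were also in 11 of 37 windows (29.7%) of other replication genes, a list described below. In the G1 genes and the brake they were in 1 of 6 and 0 of 6 windows. The same stretch of Mcm6 shows 3 E2F words, the first 2 of which overlap on opposite strands, and that of Rrm2 shows CCAAT alone.
Mcm6: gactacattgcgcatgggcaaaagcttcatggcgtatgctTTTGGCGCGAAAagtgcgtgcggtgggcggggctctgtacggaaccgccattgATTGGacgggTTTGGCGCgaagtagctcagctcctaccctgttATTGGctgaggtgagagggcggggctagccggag
Rrm2: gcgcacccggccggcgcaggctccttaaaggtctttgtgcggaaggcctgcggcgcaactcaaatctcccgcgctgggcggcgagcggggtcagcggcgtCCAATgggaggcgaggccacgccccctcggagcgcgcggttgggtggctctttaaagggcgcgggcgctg
They lie at chr1:128359686-128359855 on the minus strand (Mcm6) and at chr12:24708104-24708273 on the plus strand (Rrm2).

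Among the G1 cyclins and kinases the balance between D-type cyclins, and between Cdk4 and Cdk6, was not the same in the 3 cell types. Of the 8 genes, 2 were called higher in neurons than in astrocytes (Ccnd1 and Ccnd2), 5 higher in neurons than in microglia, 3 higher in astrocytes than in microglia (Ccnd2, Ccne1 and Ccne2) and 1, Cdk6, higher in microglia than in astrocytes. These shares of 25.0%, 62.5%, 37.5% and 12.5% stand against 12.9%, 29.5%, 32.3% and 10.2% of all genes. Those between astrocytes and microglia are near the share of all genes. Median log2 differences were 0.38, 1.21 and 0.83. Of the 5 calls between neurons and microglia, those of Ccnd3 and Cdk4 were lost under both other scalings and that of Ccne2 under quantile normalization.

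**Figure D5:**
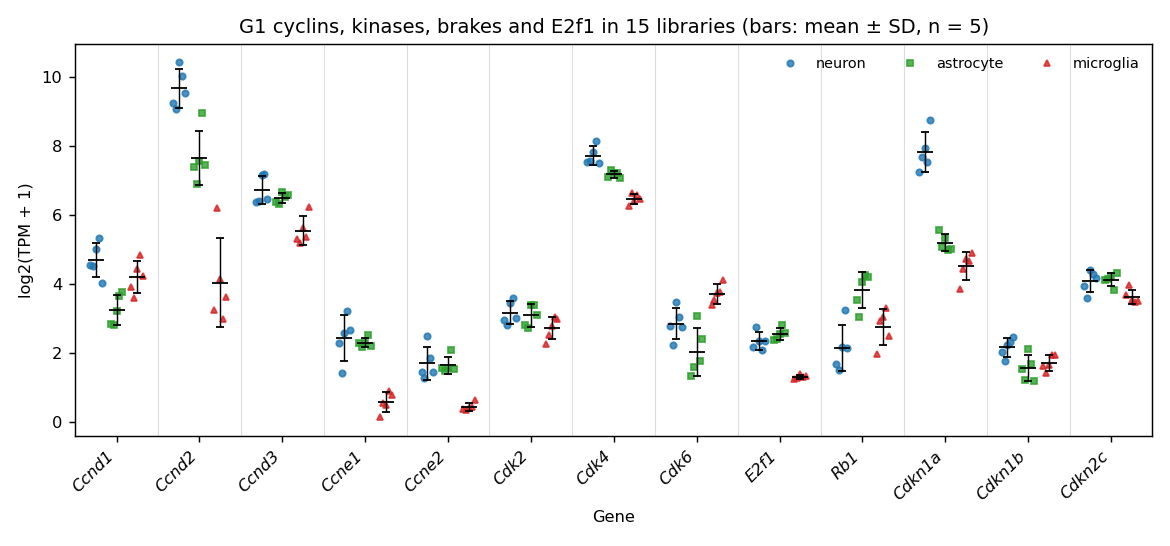
Level of the 8 G1 cyclins and kinases and of E2f1, Rb1, Cdkn1a, Cdkn1b and Cdkn2c as log2(TPM + 1), with genes along the bottom, 1 point per library, and bars for the mean ± SD over 5 libraries of each cell type. Ccnd2 lies at 536 TPM or more in neurons and at 72.5 TPM or less in microglia, Cdk6 is highest in microglia, Rb1 in astrocytes and Cdkn1a in neurons.

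Ccnd2, cyclin D2 (mm10 chr6:127125162-127152193, minus strand), was the most abundant of the 39 genes in neurons and astrocytes. It stood at 610.3, 536, 1390.1, 1048 and 748 TPM in neurons, at 166, 117, 188, 496 and 173 TPM in astrocytes and at 8.51, 72.5, 16.6, 6.96 and 11.4 TPM in microglia. The 3 groups did not overlap, although astrocyte library 4 and microglia library 2 stood well above the others of their groups. It was called 4.07-fold higher in neurons than in astrocytes (adjusted p = 0.00207), 49.4-fold higher in neurons than in microglia (adjusted p = 1.45e-08) and 12.1-fold higher in astrocytes than in microglia (adjusted p = 3.61e-06). Its order of groups was also that of the endothelial and mural sums, whose part was not tested. The folds against microglia became 85.6 and 21.1 without all libraries numbered 1 and 2, and 30.5 and 7.34 without those numbered 3 and 4. Ccnd2 shares exon bases with Gm43126 and 9330179D12Rik on the other strand, and whether strand was used in counting is not given in the sources used here.

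The other D-type cyclins followed other orders. Ccnd1, cyclin D1, stood at 22.6, 22.2, 31.1, 39.5 and 15.5 TPM in neurons, at 6.24, 6.02, 8.32, 11.5 and 12.5 TPM in astrocytes and at 14.2, 11.1, 20.7, 27.5 and 17.9 TPM in microglia. Astrocytes were lowest, without overlap with neurons (2.71-fold, adjusted p = 0.000197) but overlapping microglia (log2 difference -0.95, adjusted p = 0.00413, not called). That difference from microglia was called under both other scalings and without astrocyte library 4 or 5 or microglia library 1 or 2 (-1.02 to -1.10). Ccnd3, cyclin D3, averaged 108 ± 32.4 TPM in neurons, 89.5 ± 9.21 TPM in astrocytes and 47.4 ± 15.8 TPM in microglia. Of the summed level of the 3 cyclins, Ccnd2 made up 83.4 to 89.0% in neurons, 58.1 to 82.9% in astrocytes and 9.30 to 60.9% in microglia, and the last value was that of microglia library 2 alone. On average Ccnd3 was the leading D-type cyclin in microglia, with 55.0% of the sum, and Ccnd1 held 22.1% there against 2.73% in neurons and 2.93% in astrocytes.

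Cdk6 and Cdk4, the kinases that D-type cyclins activate, had different orders of cell types. Cdk6 (mm10 chr5:3341485-3531008, plus strand) stood at 5.83, 3.67, 10.1, 7.24 and 5.73 TPM in neurons, at 1.52, 2.05, 7.43, 2.39 and 4.33 TPM in astrocytes and at 9.49, 10.7, 12.3, 12.7 and 16.5 TPM in microglia. Every microglia library was above every astrocyte library (3.20-fold, adjusted p = 5.64e-05), and 1 neuron library overlapped the microglia, which left neurons 0.86 below microglia on the log2 scale (adjusted p = 0.0143, not called). Without that library, neuron library 3, the log2 difference was -1.02 and was called, as it was under both other scalings. Without astrocyte library 3, at 7.43 TPM, neurons were called higher than astrocytes for Cdk6 (1.07). Cdk4 averaged 213 ± 44.3, 144 ± 9.60 and 87.9 ± 8.95 TPM, with no overlap between any groups, and was called only between neurons and microglia (2.38-fold, adjusted p = 1.28e-07). The ratio of Cdk4 to Cdk6 within a library was 35.2 in neurons, 55.5 in astrocytes and 7.35 in microglia on average.

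The E-type cyclins, which activate Cdk2 at the start of replication, were low in microglia. Ccne1 averaged 4.84 ± 2.40, 3.94 ± 0.477 and 0.522 ± 0.298 TPM and Ccne2 2.42 ± 1.30, 2.16 ± 0.606 and 0.360 ± 0.112 TPM, and both were called lower in microglia than in each other cell type, while neurons and astrocytes overlapped. The call of Ccne2 between astrocytes and microglia was lost under both other scalings. Cdk2 itself averaged 8.202 ± 2.19, 7.69 ± 1.92 and 5.76 ± 1.47 TPM and overlapped in all 3 comparisons (adjusted p between 0.0686 and 0.769).

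The genes of the brake were split between cell types. Cdkn1a, the inhibitor p21 (mm10 chr17:29090976-29100727, plus strand), stood at 152, 206, 243, 183 and 431 TPM in neurons, at 46.2, 33.0, 39.6, 30.5 and 31.3 TPM in astrocytes and at 13.5, 20.6, 25.4, 24.7 and 28.7 TPM in microglia. None of the groups overlapped, and neurons were 6.21-fold above astrocytes (adjusted p = 5.91e-08) and 9.95-fold above microglia (adjusted p = 1.30e-09). The p21 transcript and the mitotic sum were thus both highest in the neuron libraries, where endothelial markers also summed to more than the pan-neuronal ones. Among neurons, Cdkn1a was highest in library 5, as were the pan-neuronal sum (1926 TPM) and the endothelial sum (40927 TPM), whereas the mitotic sum was highest in library 4. The part of these cells in the p21 level was not tested. Cdkn1b, the inhibitor p27, was low throughout at 3.56 ± 0.823, 2.03 ± 0.835 and 2.32 ± 0.522 TPM, and Cdkn2c, the inhibitor p18 of Cdk4 and Cdk6, averaged 16.3 ± 3.54, 16.5 ± 2.15 and 11.5 ± 1.87 TPM. Neither was called in any comparison.

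Rb1, the retinoblastoma pocket protein (mm10 chr14:73183673-73325822, minus strand), was the 1 gene highest in astrocytes by both comparisons. It stood at 2.21, 1.83, 3.48, 8.49 and 3.46 TPM in neurons, at 10.7, 7.25, 15.5, 18.0 and 17.5 TPM in astrocytes and at 2.96, 6.56, 7.25, 8.92 and 4.66 TPM in microglia. Neuron library 4 and microglia library 4 lay above the lowest astrocyte library, and microglia library 3 equalled it. Astrocytes exceeded neurons by 1.67 ± 0.32 on the log2 scale (3.18-fold, adjusted p = 0.000298) and microglia by 1.07 ± 0.32 (2.10-fold, adjusted p = 0.00688). The call against microglia was lost under both other scalings and without astrocyte library 4, astrocyte library 5 or microglia library 1, with log2 differences of 0.46 to 0.97 in these 5 cases. Neurons minus microglia was -0.60 (adjusted p = 0.108, not called), and under median-of-ratios scaling (-1.12) and quantile normalization (-1.15) Rb1 was called higher in microglia than in neurons. Rb1 shares exon bases on the other strand with Lpar6 and Rcbtb2, as 13 of the 39 genes do with some gene. E2f1, the activator that Rb1 binds, averaged 4.18 ± 0.974 TPM in neurons, 4.86 ± 0.734 TPM in astrocytes and 1.49 ± 0.0984 TPM in microglia, and its calls against microglia (2.06-fold and 2.34-fold) were lost under both other scalings.

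Calls close to the 2-fold minimum also turned on single libraries. Neuron library 4, the highest for most mitotic and replication genes, carried the calls of Mcm2 and Mcm4 against microglia, whose log2 differences were 0.996 and 0.985 without it. Neuron library 2, the lowest for most of those genes but the highest for E2f1, carried the call of E2f1 against microglia (0.94 without it). Leaving that library out brought the differences between neurons and astrocytes of Aurkb (1.20), Mcm5 (1.05), Rrm2 (1.04) and Tyms (1.01) past the minimum. Aurkb was also called there without neuron library 1 or astrocyte library 4 or 5 (1.01 to 1.02), and Mcm5 without neuron library 5 or astrocyte library 2 or 3 (1.002 to 1.042). Between neurons and microglia, Tyms was called without neuron library 1 or 2 or microglia library 4 or 5 (1.02 to 1.15). Between astrocytes and microglia, Bub1b was called without microglia library 4 (1.12), Ccnd3 without microglia library 5 (1.12) and Mcm6 without astrocyte library 1 or 2 or microglia library 3 or 4 (1.002 to 1.077). The call of Aurka there was lost without microglia library 1 (0.9999). All of these differences kept their direction.

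Further genes of the same pathways were read from lists written for this purpose. Of 34 other mitotic genes tested, 15 were called higher in neurons than in astrocytes, 29 higher in neurons than in microglia and 16 higher in astrocytes than in microglia, with median log2 differences of 0.89, 1.70 and 0.84. These shares of 44.1%, 85.3% and 47.1% stand against 12.9%, 29.5% and 32.3% of all genes. Ube2c, the ubiquitin-conjugating enzyme of the anaphase-promoting complex, averaged 158 ± 39.7 TPM in neurons, 32.8 ± 6.46 TPM in astrocytes and 4.17 ± 2.46 TPM in microglia (4.63-fold between neurons and astrocytes and 32.9-fold between neurons and microglia). Pbk, a mitotic kinase, averaged 38.7, 15.3 and 0.880 TPM, and the Ndc80 complex subunits Spc24 and Spc25 averaged 22.5 and 33.5 TPM in neurons and 1.04 and 2.26 TPM in microglia. Knl1, the kinetochore scaffold, averaged 5.62 TPM in neurons and 0.926 TPM in astrocytes, and the centromeric histone Cenpa averaged 36.4 and 11.6 TPM. With TPM as deposited a single mitotic gene, the condensin subunit Ncaph, was called higher in microglia than in both others, at 15.6 TPM against 6.78 TPM in neurons and 2.54 TPM in astrocytes, and it was picked out after its values were seen. Under median-of-ratios scaling and quantile normalization, 26 and 21 genes of this list were called higher in neurons and 1 and 3 higher in microglia. Between astrocytes and microglia, 11 and 10 were called higher in astrocytes and 3 and 3 higher in microglia. The CHR letters were in 24 of 32 promoters of this list (75.0%).

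Of 38 other replication genes tested, 3 were called higher in neurons than in astrocytes (Pola1, Lig1 and Gmnn), 13 higher in neurons than in microglia and 7 higher in astrocytes than in microglia, with medians of 0.27, 0.76 and 0.45 and none called the other way. These shares of 7.89%, 34.2% and 18.4% were below, near and below the 12.9%, 29.5% and 32.3% of all genes. Under both other scalings the calls against microglia fell to 7 and 8 for neurons and to 4 and 3 for astrocytes, with 2 genes called higher in microglia than in astrocytes. Pola1, the catalytic subunit of DNA polymerase alpha, averaged 10.8 TPM in neurons and 2.80 TPM in astrocytes (3.08-fold), and the replication ligase Lig1 averaged 15.96 and 4.96 TPM (2.83-fold). Dut, which keeps uracil out of DNA, averaged 64.7, 34.6 and 8.21 TPM in neurons, astrocytes and microglia. Orc6, of the origin recognition complex, was highest in astrocytes by its mean, at 51.3 TPM against 37.8 TPM in neurons and 14.3 TPM in microglia.

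The 33 other G1 regulators tested were divided. In neurons 4 were called higher and 4 lower than in astrocytes, 11 were higher and 2 lower than in microglia, and in astrocytes 11 were higher and 1 lower than in microglia, with medians of -0.02, 0.46 and 0.55 that lay close to those of all genes. The shares called higher (12.1%, 33.3% and 33.3%) were near the 12.9%, 29.5% and 32.3% of all genes. Those called lower were 12.1%, 6.06% and 3.03%, against 12.7%, 9.74% and 10.2%. Under median-of-ratios scaling and quantile normalization, 6 and 7 were called higher in neurons and 2 and 4 higher in microglia (medians 0.02 and -0.05), and 5 and 5 were called higher in astrocytes and 3 and 3 higher in microglia (medians -0.08 and 0.05). The inhibitors Cdkn1c (p57) and Cdkn2b (p15) were high in neurons like Cdkn1a, at 90.2 ± 26.7 and 29.8 ± 9.01 TPM against 19.1 ± 3.23 and 5.97 TPM in astrocytes (4.43-fold and 4.34-fold). Lin52, a subunit of the complex that represses or activates cell cycle genes, and E2f5, a repressive E2F factor, were high in astrocytes, at 36.8 and 40.2 TPM against 11.2 and 16.6 TPM in neurons. Wee1, the kinase that inhibits Cdk1, averaged 5.22 TPM in neurons, 5.14 TPM in astrocytes and 0.356 TPM in microglia. The 2 genes called higher in microglia than in neurons were Myc and Ccng2, picked out after their values were seen, at 9.42 and 58.0 TPM against 2.57 and 22.3 TPM.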

How the data were processed

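The values were gene levels in TPM as deposited by the authors, for 5 libraries each of neurons, astrocytes and microglia. The submitters' processing notes list mm10, DESeq2 1.36.0, RSEM 1.2.28, STAR 2.7.1a and Trim Galore 0.6.4, and the strand setting is not given in the sources used here. TPM sets every library to a total of 1000000, so a gene's level depends on all others, read depth is lost and no count test applies. No pair of libraries held identical values.

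Values were taken as log2(TPM + 1). The 13351 genes that reached 1 TPM in 5 or more libraries were fitted in limma 3.58.1 (R 4.3.3) with a mean per cell type and a variance trend, and p-values were adjusted by Benjamini-Hochberg over all of them. The script was tested on simulated data. Python 3.11.15, numpy 2.4.6, pandas 2.3.3 and matplotlib 3.10.9 made the tables and figures. Coordinates come from GENCODE vM21 (mm10), and promoters from RefSeq (GRCm38.p6).

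The members and lists were chosen with earlier results of these data known. All members may be named, and of each further pathway list up to 4 genes per comparison with the largest called differences and no overlap. Replicate numbers recur in each cell type. After group means were removed, libraries of 1 number correlated at 0.216 to 0.382 between neurons and microglia, above 0.1 in 5 of 5 cases, so these numbers count as pairs by the data though no label says so. Between neurons and astrocytes (-0.0329 to 0.233) and between astrocytes and microglia (-0.0110 to 0.249) they did not all pass 0.1.

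The 27 alternatives used no filter, a 5 TPM filter, a pseudocount of 0.1, quantile normalization, median-of-ratios scaling, fits of the 2 groups compared, array weights, no variance trend, the replicate block, no fold minimum, each of the 15 libraries left out, and 2 added after the data were seen (without libraries numbered 1 and 2, and without those numbered 3 and 4).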

Additional observations from a re-analysis of the deposited data

Results flagged for a closer look

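In 9 of 117 groups of 5 libraries, 1 library stood far from the other 4, with a gap to its nearest neighbour above 0.71 of the whole range (Dixon's test). About 1 group in 20 is picked out by chance, which is 5.85 of 117. The gap was large for Ccnd2 in microglia library 2, at 72.48 TPM against 6.96 to 16.64 TPM in the others, and for Ccnd2 in astrocyte library 4, at 495.64 TPM against 117.3 to 187.8 TPM. Rb1 in neuron library 4 was at 8.49 TPM against 1.83 to 3.48 TPM, Bub1b in microglia library 4 at 3.24 TPM against 0.11 to 0.42 TPM, and Mcm2 in microglia library 5 at 3.51 TPM against 0.56 to 1.23 TPM. Astrocyte library 3 was highest for Ccna2, at 6.71 TPM against 4.18 to 4.56 TPM, and for Tyms, at 23.79 TPM against 14.66 to 15.93 TPM. Ccne2 in astrocyte library 4 was at 3.24 TPM against 1.77 to 1.96 TPM, and Aurka in microglia library 1 was the only low value of this kind, at 0.37 TPM against 0.95 to 1.05 TPM.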

How the results depend on the processing

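Of 62 called differences of the members, 39 were called under each of the 27 alternatives in which their gene was tested and 23 were lost under at least 1, and 33 of the other differences were called under at least 1. No called difference changed sign. Without a fold minimum the calls between neurons and astrocytes went from 14 to 27 (higher in neurons from 13 to 26), those between astrocytes and microglia from 19 to 31 (higher in astrocytes from 18 to 28, in microglia from 1 to 3), and those higher in microglia than in neurons from 0 to 1. Over all 13351 genes that rule called 3493 higher in neurons and 3803 in astrocytes. It called 7469 higher in astrocytes and 2178 in microglia, and 2134 higher in microglia than in neurons. The filter of 5 TPM left 27 members tested and 19 of the 29 calls between neurons and microglia. Quantile normalization gave 18 calls higher in neurons and 2 higher in microglia, and 11 between astrocytes and microglia (8 and 3). Median-of-ratios scaling gave 3 calls higher in microglia than in neurons, and 10 and 3 between astrocytes and microglia. Higher in microglia than in astrocytes were 2 members with a pseudocount of 0.1 (Cdk6 and Ccnd1) and 2 without libraries numbered 1 and 2 (Cdk6 and Mcm3). Without those numbered 3 and 4, 1 was higher in microglia than in neurons. With 1 library left out, members higher in microglia ranged from 0 to 1 against neurons and from 1 to 2 against astrocytes. The replicate block gave 14, 29 and 19 calls and changed no call of a member. Depth is unknown, so levels of genes below 1 TPM, such as Mki67 outside neurons, have a precision that cannot be stated.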

Other observations

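Ratios of partners within a library are not changed by a scaling factor per library. The ratio of Cdk1 to its partner Ccnb1 was 2.75 ± 0.149 in neurons (mean ± SD, n = 5), 2.43 ± 0.810 in astrocytes and 9.54 ± 2.68 in microglia. The ratio of the inhibitor Cdkn1a to the inhibitor Cdkn1b was 68.1 in neurons, 19.6 in astrocytes and 9.85 in microglia on average. The 39 members together summed to 1981 ± 548 TPM in neurons, 792 ± 179 TPM in astrocytes and 380.3 ± 44.5 TPM in microglia, of which Ccnd2 alone made up 42.6%, 27.0% and 5.85%. Cdkn2a, the gene of the inhibitor p16 and of Arf, was listed at 0 in every neuron and microglia library.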
